A study of Mus musculus with 6 samples.

Results

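The collagen genes of white adipose tissue were described across control and Ntsr2 AKO mice. All rows of the deposited expression table whose symbol is Col, a number, the letter a and a number were taken, and 44 such genes were found among 21456 genes. Of these, 35 had a mean normalized count of at least 10 over the 6 mice and were kept. They fall into 10 fibrillar collagens, 6 basement membrane collagens, 5 beaded filament collagens and 14 others, the last being 5 fibril-associated, 2 short-chain network, 1 anchoring fibril, 2 multiplexin and 3 transmembrane collagens and Col28a1. The 9 genes under the minimum were Col2a1, Col6a4, Col9a1, Col9a2, Col10a1, Col19a1, Col22a1, Col25a1 and Col26a1. The highest of them was Col9a1, with a mean of 9.74, and the lowest gene that was kept was Col8a2, with a mean of 10.2.

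RNA-seq of white adipose tissue was performed on poly-A RNA of 3 control mice and 3 Ntsr2 AKO mice on a chow diet, which are called control 3, 4 and 5 and Ntsr2 AKO 3, 4 and 5 after their labels. Control mice carried Ntsr2 flox/flox alleles. Ntsr2 AKO mice carried the same floxed alleles together with Adipoq-Cre, which is expressed in adipocytes, so Ntsr2, a receptor for the peptide neurotensin, is removed in adipocytes while the other cells of the tissue keep it. The age, sex and depot of these mice were not given in the sources used here, and no mice with Adipoq-Cre and wild-type Ntsr2 were among the samples.

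Collagens are secreted proteins of 3 chains wound into a triple helix, which requires glycine as the first residue of each repeating Gly-X-Y triplet. Fibrillar collagens form the tensile fibers of the interstitial matrix, type IV collagen forms the network of basement membranes, and type VI collagen forms beaded microfilaments around cells. In adipose tissue every adipocyte is surrounded by a basement membrane rich in type IV and type VI collagen, while most fibrillar collagen is made by fibroblasts and adipocyte progenitors. In RNA of whole tissue, fewer cells of a type and less RNA per cell cannot be told apart.

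The repeat of glycine is visible in the coding exons of these genes. In GENCODE release M21 (GRCm38), 22.8% of the 1609 inner coding exons of the 35 genes are exactly 54 bases long, against 0.697% of 124817 inner coding exons of all tested genes with a coding model. This share was 48.9% in fibrillar genes (281 of 575 exons), 4.23% in basement membrane genes, 8.19% in beaded filament genes and 10.4% in the others. Exon lengths that are multiples of 9 bases, the length of 1 Gly-X-Y triplet, made up 62.5% in collagen genes and 14.0% in all genes. One such exon is shown for each of 5 abundant genes, with the glycine codon (GGN) that opens each of the 6 triplets in capitals, because it shows what the classes share at the sequence level. They are exon 8 of Col1a2 (chr6:4515481-4515534, plus strand), exon 6 of Col3a1 (chr1:45325360-45325413, plus strand), exon 15 of Col5a1 (chr2:27965251-27965304, plus strand), exon 7 of Col4a1 (chr8:11245211-11245264, minus strand) and exon 9 of Col6a1 (chr10:76719623-76719676, minus strand).
Col1a2 exon 8: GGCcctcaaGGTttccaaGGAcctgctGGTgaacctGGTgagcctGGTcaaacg
Col3a1 exon 6: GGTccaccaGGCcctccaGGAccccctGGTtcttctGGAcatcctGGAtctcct
Col5a1 exon 15: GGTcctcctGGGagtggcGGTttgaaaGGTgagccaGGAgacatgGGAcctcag
Col4a1 exon 7: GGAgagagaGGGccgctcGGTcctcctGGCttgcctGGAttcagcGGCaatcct
Col6a1 exon 9: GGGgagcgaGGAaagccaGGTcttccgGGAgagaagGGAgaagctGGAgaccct
Exons of 54 bases were 4.0% of the inner coding exons in Col4a1 and 9.09% in Col6a1. Each exon shown is the first of 54 bases in which glycine opens each triplet over the whole length. That feature was thus fixed by the choice. Exons of any multiple of 9 bases that keep the frame in this way numbered 43 of 52 in Col1a2, 42 of 51 in Col3a1 and 48 of 66 in Col5a1. In Col4a1 they numbered 11 of 52, and in Col6a1 17 of 35.

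Before the results, the libraries themselves require a description. Between 60405373 and 66098226 reads were recovered for each control mouse and between 54085088 and 56268725 for each Ntsr2 AKO mouse, so the number of mice limits the precision more than the depth does for abundant collagens. Ntsr2 was at 83.8, 64.0 and 153 normalized counts in control mice and at 3.10, 8.29 and 0 in Ntsr2 AKO mice. All 10 adipocyte markers were expressed in every mouse. Skeletal muscle markers set 3 mice apart, since the summed normalized count of the 10 markers was 1011, 509.6 and 2598682 in control 3, 4 and 5 and 1567, 85407 and 187090.2 in Ntsr2 AKO 3, 4 and 5. Control 5 and Ntsr2 AKO 4 and 5 thus held muscle RNA, and values without these mice are given beside the results for the genes described in full. Such values rest on Ntsr2 AKO 3 as the only Ntsr2 AKO mouse.

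Across the 35 collagen genes no difference between the genotypes passed the test. limma on log2(normalized count + 1), with Benjamini-Hochberg adjustment over all 16157 genes, placed 0 of 35 collagen genes under an adjusted p of 0.05, with 0.00619% of all genes (1 gene) called. The smallest adjusted p of a collagen gene was 0.565. At an unadjusted p under 0.05, 2 collagen genes were lower in Ntsr2 AKO mice and 0 were higher, beside 5.27% and 3.08% of all genes. The groups did not overlap in 2 genes that were lower and 1 that was higher, beside 8.16% and 6.82% of all genes. All 3 of these genes encode chains of type VI collagen, and they went in both directions, with Col6a1 and Col6a2 lower and Col6a6 higher. All these counts were near or under the shares of all genes. edgeR on the recovered reads called 0 collagen genes and 0% of all genes, with 1 collagen gene lower and 0 higher at an unadjusted p under 0.05 (4.9% and 3.29% of all genes). DESeq2 called 0 collagen genes and 1.36% of all genes, with 4 collagen genes lower and 0 higher at an unadjusted p under 0.05 (6.39% and 4.01% of all genes). Those 4 were Col6a1, Col7a1, Col6a2 and Col4a1. Ntsr2, the deleted gene, had a log2 fold change of -4.81 (SE 0.91) and was not called by limma either (adjusted p = 0.499). Its adjusted p was 0.569 in edgeR, and DESeq2 called it with an adjusted p of 0.000121. A lack of calls therefore does not show that collagen levels were equal.

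The direction of the differences was mixed. The log2 fold change (Ntsr2 AKO minus control) was below 0 in 22 genes (62.9%) and above 0 in 13, beside 51.0% of all genes tested below 0. The median was -0.16, while the median of all genes tested was -0.0071. With a mean of at least 1000, 10 of 15 collagen genes were below 0, beside 57.8% of all genes at that level. By class the median was -0.051 in fibrillar, 0.40 in basement membrane, -0.16 in beaded filament and -0.26 in the other collagens. In the basement membrane class the 4 low-level chains Col4a3 to Col4a6 were above 0, and the abundant chains Col4a1 and Col4a2 were below 0. Standard errors of the log2 fold change ranged from 0.13 to 1.20 with a median of 0.43 in collagen genes, and the median of all genes was 0.24.

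**Figure D1:**
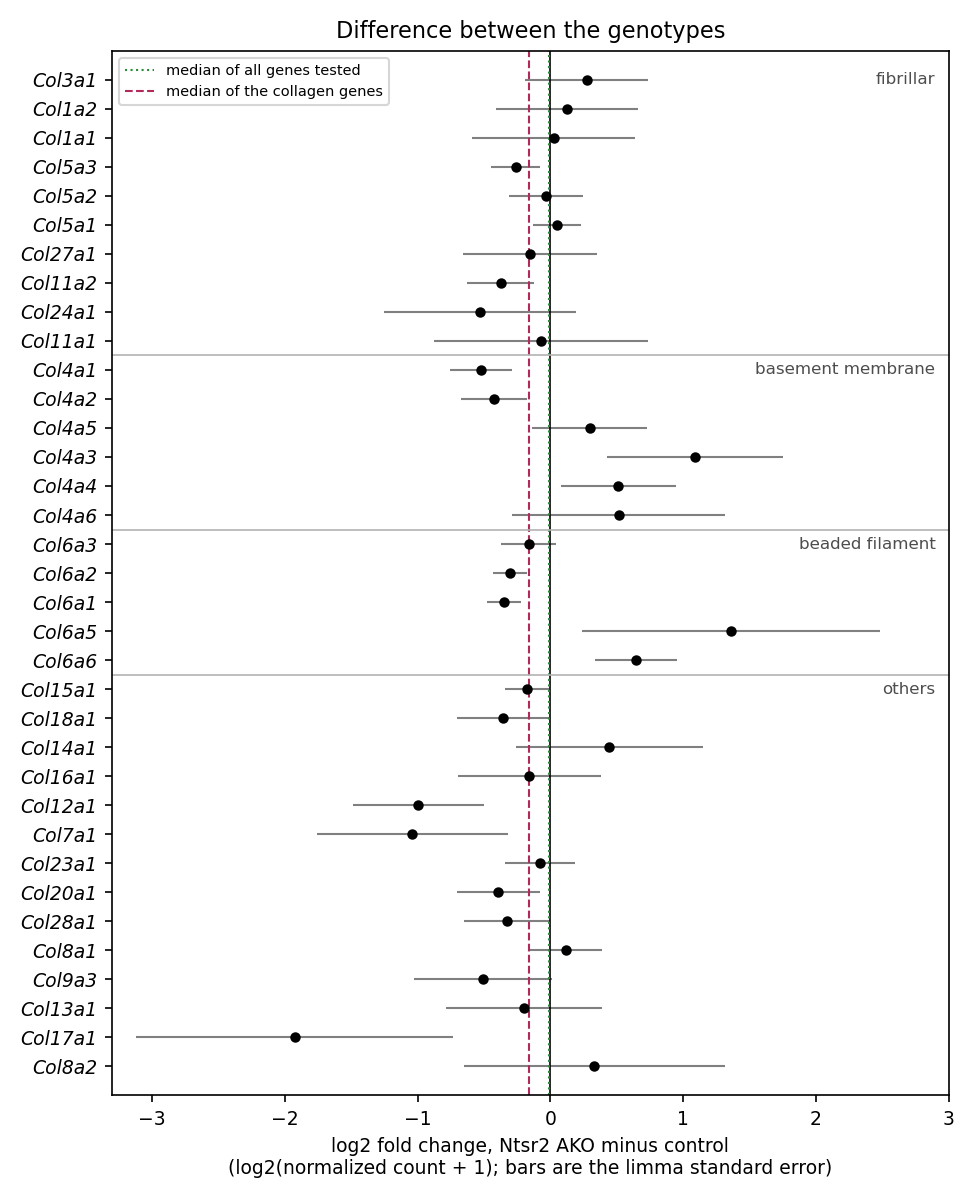
The log2 fold change of each of the 35 collagen genes (x axis, Ntsr2 AKO minus control, on log2(normalized count + 1)) is plotted by class and by falling level, and bars are the limma standard error. Col6a1 and Col6a2 have the shortest bars and lie at -0.35 and -0.31, and the wide bars of Col17a1 and Col6a5 belong to genes with few reads or with a mouse far from the others.

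Among the fibrillar collagens, type I and type III chains held the highest levels of the class. Per kb of transcript, the mean normalized count was 27642 for Col3a1, 13496 for Col1a2 and 7803 for Col1a1, and Col5a3 followed at 4891. Col3a1, the single chain of type III collagen, was at 87261, 174622 and 138073 normalized counts in control 3, 4 and 5 and at 112665, 109908 and 300276 in Ntsr2 AKO 3, 4 and 5. Ntsr2 AKO 5 stood highest and control 3 lowest, and the other 4 mice were interleaved. The means were 133318 ± 43874 and 174283 ± 109122 (SD, n = 3 each), with a log2 fold change of 0.27 (SE 0.46, limma adjusted p = 0.886).

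The type I collagen chains were also highest in Ntsr2 AKO 5. Col1a2, the alpha 2 chain, was at 37368, 78154 and 79340.5 in control mice and at 49419.6, 41132 and 147634 in Ntsr2 AKO mice. Col1a1, the alpha 1 chain, was at 22687, 59429 and 44889 in control mice and at 29264, 21834 and 99542 in Ntsr2 AKO mice. Again Ntsr2 AKO 5 stood above all others, and control 3 and Ntsr2 AKO 4 were the lowest mice in both genes. The log2 fold changes were 0.12 (SE 0.54, limma adjusted p = 0.963) for Col1a2 and 0.024 (SE 0.61, limma adjusted p = 0.994) for Col1a1. Without Ntsr2 AKO 5 the values turned to -0.20 for Col3a1, -0.45 for Col1a2 and -0.64 for Col1a1. Without control 3 they were -0.0033, -0.23 and -0.37, and in the 3 mice low in skeletal muscle markers (control 3 and 4 and Ntsr2 AKO 3) they were -0.13, -0.13 and -0.33.

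Most markers of fibroblasts and progenitors had the same extreme mice. All 10 of 10 listed markers were measured in every mouse, and their summed normalized count was 25376, 37396 and 51765 in control mice and 33763, 32286 and 73913 in Ntsr2 AKO mice, so that control 3 was lowest and Ntsr2 AKO 5 highest in the sum. Ntsr2 AKO 5 was the highest mouse in 8 of the 10 markers and control 3 the lowest in 6. Icam1 went the other way, with 1032 in control 3 and the lowest value, 534, in Ntsr2 AKO 5, and Pdgfra was highest in control 5 and lowest in Ntsr2 AKO 4. The part of this difference in the fibrillar collagen values was not tested.

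Col5a3, a type V chain found in adipose tissue, behaved otherwise. It was at 29682, 36104 and 31538 in control mice and at 34101, 25160.3 and 22999 in Ntsr2 AKO mice, where Ntsr2 AKO 5 was the lowest mouse of all. The groups overlapped through Ntsr2 AKO 3, and the log2 fold change was -0.26 (SE 0.18, limma adjusted p = 0.724), -0.14 without Ntsr2 AKO 5 and 0.059 in the 3 mice low in skeletal muscle markers. The remaining type V chains Col5a1 and Col5a2 had log2 fold changes of 0.050 and -0.034. Col24a1, a minor fibrillar collagen, was at 74.5, 23.7 and 132 in control mice and at 26.8, 35.2 and 81.0 in Ntsr2 AKO mice, with a log2 fold change of -0.53 (SE 0.73, limma adjusted p = 0.852), 0.011 without control 5 and -0.63 in the 3 mice low in skeletal muscle markers. Col27a1, Col11a2 and Col11a1 had log2 fold changes of -0.15, -0.38 and -0.069, and their groups overlapped.

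**Figure D2:**
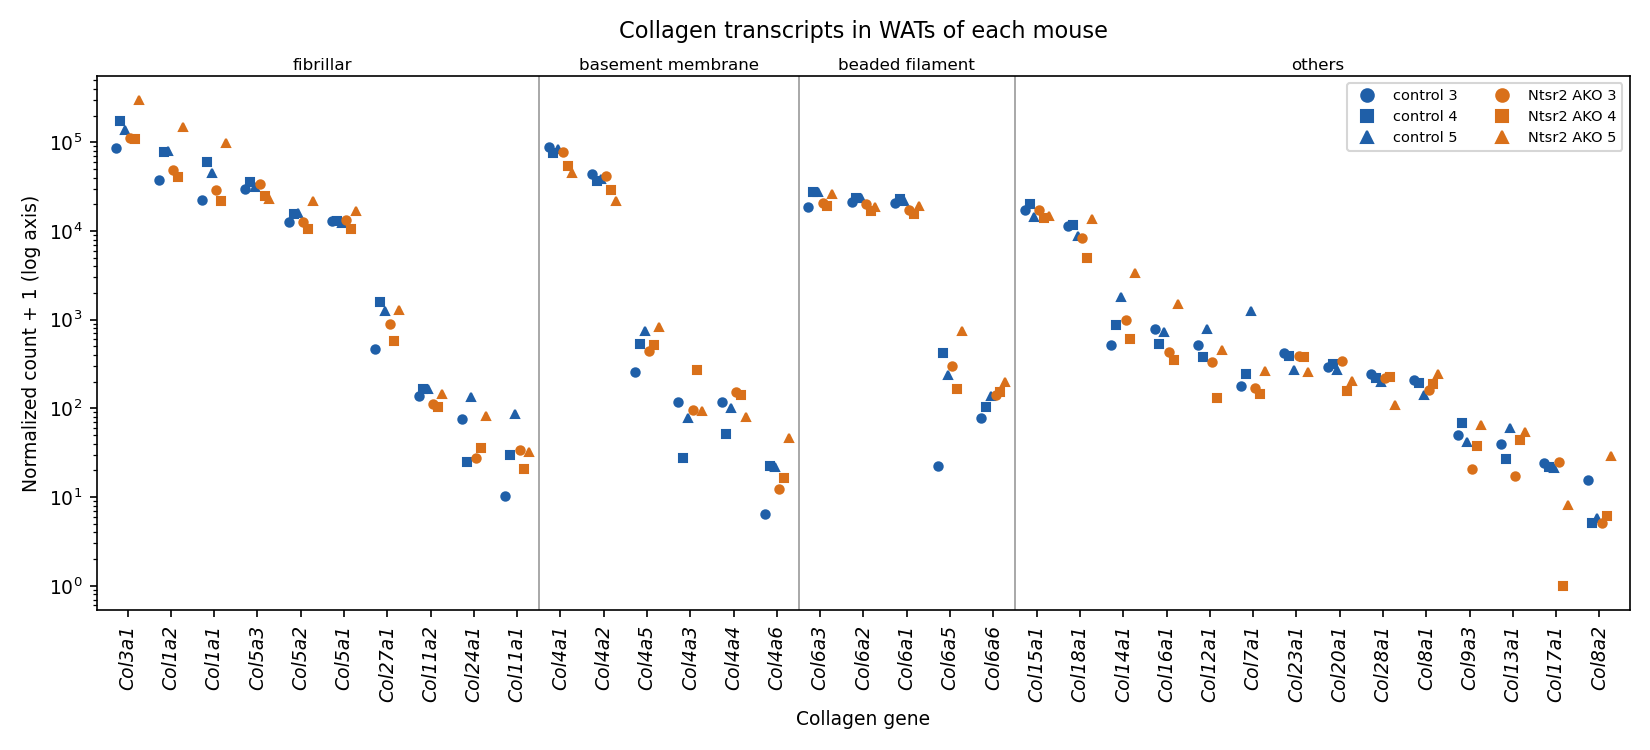
Normalized count + 1 (y axis, log scale, not corrected for length) is plotted for the 35 collagen genes by class, each point being 1 mouse, with control mice in blue, Ntsr2 AKO mice in orange and the shape giving the mouse number. Levels reach from 300276 for Col3a1 in Ntsr2 AKO 5 to 0 for Col17a1 in Ntsr2 AKO 4, and the genotypes overlap in all genes but Col6a1, Col6a2 and Col6a6.

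The basement membrane class was dominated by 2 chains that form the common type IV network. Col4a1 was at 89182, 75549 and 83481 in control mice and at 77968, 54263 and 44610.3 in Ntsr2 AKO mice. Ntsr2 AKO 4 and 5 were lower than every control mouse, and Ntsr2 AKO 3 lay between control 4 and control 5. Its means were 82737 ± 6847 and 58947 ± 17165 (SD, n = 3 each), with a log2 fold change of -0.53 (SE 0.23, limma adjusted p = 0.601). Col4a2 was at 44406, 36705 and 38863 in control mice and at 41669, 28799 and 21826 in Ntsr2 AKO mice, in a similar order, with a log2 fold change of -0.42 (SE 0.25, limma adjusted p = 0.673).

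The mice that were low in Col4a1 and Col4a2 were also those with muscle RNA among the Ntsr2 AKO mice. A fit of the 3 mice low in skeletal muscle markers keeps Ntsr2 AKO 3 as the only Ntsr2 AKO mouse. That mouse is the one that lay within the control range in both genes. In that fit the log2 fold change was -0.074 for Col4a1 and 0.046 for Col4a2. With the level of the muscle markers as a covariate it was -0.50 for Col4a1 and -0.39 for Col4a2. Without Ntsr2 AKO 5 it was -0.34 for Col4a1 and -0.20 for Col4a2. Control 5, which held the most muscle RNA, was not low in either gene. The summed normalized count of 10 endothelial markers, which mark cells that also lay down type IV collagen, was 39147, 33458 and 24080.0 in control mice and 31870.2, 34132 and 25543 in Ntsr2 AKO mice. The part of muscle RNA and of endothelial cells in the result was not tested.

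The other type IV chains were present at low levels. Col4a5, which encodes a chain of the alpha 3, 4, 5 network and of the alpha 5, 6 network, was at 257, 537 and 752 in control mice and at 441, 523 and 833 in Ntsr2 AKO mice. Col4a3, a chain of the network of the kidney glomerulus, was at 118, 26.8 and 76.7 in control mice and at 96.0, 274 and 92.1 in Ntsr2 AKO mice. Values of the genotypes were interleaved in both, and in Col4a3 control 4 was far below and Ntsr2 AKO 4 far above the other mice. The log2 fold changes were 0.30 (SE 0.43, limma adjusted p = 0.864) for Col4a5 and 1.09 (SE 0.67, limma adjusted p = 0.685) for Col4a3. For Col4a3 the value was 0.49 without control 4 and 0.58 without Ntsr2 AKO 4, and for Col4a5 it was 0.031 without Ntsr2 AKO 5 and -0.14 without control 3. In the 3 mice low in skeletal muscle markers the values were 0.25 for Col4a5 and 0.75 for Col4a3. Col4a4 and Col4a6 had log2 fold changes of 0.51 each.

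Col4a1 and Col4a2 are transcribed in opposite directions from neighboring start sites on chromosome 8, and their promoters are shown because the levels of the genes kept nearly the same ratio in every mouse. In GENCODE M21 the genes (Col4a1, chr8:11198423-11312826, minus strand, and Col4a2, chr8:11312805-11449287, plus strand) overlap by 22 bases, and the start sites lie 21 bases apart. The RefSeq windows, from 250 bases before to 50 bases after the start of each gene (GRCm38), are chr8:11312777-11313076 on the minus strand and chr8:11312555-11312854 on the plus strand, and 78 bases belong to both. Capitals mark matches to CCAAT (or its reverse complement ATTGG) and GGGCGG (or CCGCCC).
Col4a1 promoter: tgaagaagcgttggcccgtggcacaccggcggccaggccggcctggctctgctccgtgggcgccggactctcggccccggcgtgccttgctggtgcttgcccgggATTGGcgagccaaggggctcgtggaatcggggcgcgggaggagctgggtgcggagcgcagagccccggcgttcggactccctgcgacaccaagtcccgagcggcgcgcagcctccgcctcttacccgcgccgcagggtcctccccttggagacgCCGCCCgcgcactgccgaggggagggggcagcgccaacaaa
Col4a2 promoter: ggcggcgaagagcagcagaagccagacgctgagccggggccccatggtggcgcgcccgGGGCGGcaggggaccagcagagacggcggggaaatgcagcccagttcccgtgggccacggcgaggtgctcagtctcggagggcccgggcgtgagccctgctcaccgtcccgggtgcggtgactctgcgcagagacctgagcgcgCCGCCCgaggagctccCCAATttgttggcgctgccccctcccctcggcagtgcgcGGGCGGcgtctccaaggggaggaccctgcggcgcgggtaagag
The Col4a1 window holds 1 CCAAT and 1 GGGCGG, and the Col4a2 window holds 1 CCAAT and 3 GGGCGG, of which the last is the same site as that of Col4a1. Neither holds TATAAA. Of 32851 RefSeq windows, 37.4% hold CCAAT, 35.7% GGGCGG and 13.6% TATAAA on either strand. Counted by gene and not by window, 10, 19 and 4 of 29 collagen genes hold them in at least 1 of their 31 windows. Other collagen neighbors are Col4a3 and Col4a4, which are 71 bases apart, Col4a5 and Col4a6 (1308 bases), Col3a1 and Col5a2 (24.6 kb), Col6a5 and Col6a6 (27.9 kb) and Col6a1 and Col6a2 (85.2 kb).

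Type VI collagen gave the lowest limma p values of the family. Col6a1 was at 20732, 23287 and 22104 normalized counts in control mice and at 17443, 15584 and 18959.8 in Ntsr2 AKO mice. The highest Ntsr2 AKO value lay under the lowest control value, and the means were 22041 ± 1278 and 17329 ± 1691 (SD, n = 3 each). The log2 fold change was -0.35 (SE 0.13), which did not pass the test (limma adjusted p = 0.565, DESeq2 adjusted p = 0.268). Col6a2 was at 21409.8, 23727 and 23763 in control mice and at 20403, 16847 and 18569 in Ntsr2 AKO mice, again without overlap. Its means were 22967 ± 1349 and 18607 ± 1778 (SD, n = 3 each), with a log2 fold change of -0.31 (SE 0.13, limma adjusted p = 0.593, DESeq2 adjusted p = 0.368). In the 3 mice low in skeletal muscle markers the log2 fold changes were -0.33 for Col6a1 and -0.14 for Col6a2.

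Col6a3, the long alpha 3 chain of the type VI heterotrimer, varied more between mice. It was at 18854, 27858 and 27651 in control mice and at 20802, 18971 and 26263 in Ntsr2 AKO mice, and control 3 was the lowest mouse. Its log2 fold change was -0.16 (SE 0.21, limma adjusted p = 0.840), -0.062 without Ntsr2 AKO 4 and -0.35 without control 3. Per kb of transcript, the mean levels of Col6a2, Col6a1 and Col6a3 were 5264, 4801 and 2315.

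Of the chains that can take the place of Col6a3, the kept genes Col6a5 and Col6a6 had low levels and were higher in Ntsr2 AKO mice on average. Col6a4, under the minimum, was at 26.7, 11.3 and 0 in control mice and at 0, 0 and 18.2 in Ntsr2 AKO mice. Col6a6 was at 77.3, 103 and 137 in control mice and at 140.4, 152 and 197 in Ntsr2 AKO mice, so that the groups met at 137 and 140.4 without overlap. Its log2 fold change was 0.64 (SE 0.31, limma adjusted p = 0.616). Col6a5 was at 21.2, 422 and 236 in control mice and at 303, 166 and 737 in Ntsr2 AKO mice. Its log2 fold change of 1.36 (SE 1.12, limma adjusted p = 0.761) was 0.080 without control 3, and the groups overlapped. In the 3 mice low in skeletal muscle markers the log2 fold changes were -0.14 for Col6a3, 0.65 for Col6a6 and 1.65 for Col6a5.

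The promoter windows shown next are those of Col6a1 (chr10:76725995-76726294, minus strand) and Col6a2 (chr10:76623355-76623654, minus strand, the first of 2 windows listed for this gene). These genes had the lowest limma p values of the family. Capitals mark the same motifs.
Col6a1 promoter: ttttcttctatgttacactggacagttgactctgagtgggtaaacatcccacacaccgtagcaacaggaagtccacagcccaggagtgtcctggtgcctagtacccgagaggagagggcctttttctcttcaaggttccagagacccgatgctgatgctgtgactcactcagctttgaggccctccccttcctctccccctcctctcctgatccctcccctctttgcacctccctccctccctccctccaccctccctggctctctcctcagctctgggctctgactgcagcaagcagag
Col6a2 promoter: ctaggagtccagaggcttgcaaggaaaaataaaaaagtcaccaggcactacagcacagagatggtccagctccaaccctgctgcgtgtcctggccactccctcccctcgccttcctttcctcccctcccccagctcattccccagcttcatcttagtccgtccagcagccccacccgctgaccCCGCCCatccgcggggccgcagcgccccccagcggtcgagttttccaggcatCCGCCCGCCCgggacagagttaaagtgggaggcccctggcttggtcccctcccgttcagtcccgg
The Col6a1 window holds none of the 3 motifs, and the Col6a2 window holds 3 GGGCGG matches, of which the last 2 overlap each other. The GC content was 57.3% for Col6a1 and 64.3% for Col6a2, and 74.0% and 73.7% for the windows of Col4a1 and Col4a2.

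Of the other collagens, those of vessels and basement membrane zones had the highest levels. Col15a1, a multiplexin that bridges basement membranes to fibrils, was at 17416, 20344 and 14593 in control mice and at 17369, 14076 and 14641 in Ntsr2 AKO mice. Col18a1, the multiplexin from which endostatin is cleaved, was at 11349, 11761 and 8728 in control mice and at 8264, 5006 and 13509.9 in Ntsr2 AKO mice. Both sets of values overlapped, and in Col18a1 Ntsr2 AKO 4 was the lowest mouse and Ntsr2 AKO 5 the highest. The log2 fold changes were -0.18 (SE 0.16, limma adjusted p = 0.783) and -0.35 (SE 0.35, limma adjusted p = 0.794), and -0.12 and -0.48 in the 3 mice low in skeletal muscle markers. For Col18a1 the value was 0.0061 without Ntsr2 AKO 4 and -0.71 without Ntsr2 AKO 5, and for Col15a1 it was -0.060 without control 4.

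The fibril-associated collagens attach to the surface of fibrils, and the 2 with the highest levels were Col14a1 and Col16a1. Col14a1 was at 516, 860.4 and 1805 in control mice and at 995, 598 and 3394 in Ntsr2 AKO mice. Col16a1 was at 785, 535 and 735 in control mice and at 426, 346 and 1507 in Ntsr2 AKO mice. In both genes Ntsr2 AKO 5 was the highest mouse, and without it the log2 fold changes went from 0.44 (SE 0.71, limma adjusted p = 0.878) to -0.27 for Col14a1 and from -0.16 (SE 0.54, limma adjusted p = 0.952) to -0.81 for Col16a1. In the 3 mice low in skeletal muscle markers the values were 0.58 and -0.60. Col12a1, Col20a1 and Col9a3 had log2 fold changes of -0.99, -0.39 and -0.51.

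Col17a1, a transmembrane collagen of epithelial hemidesmosomes, was at 23.0, 20.6 and 20.1 in control mice and at 23.7, 0 and 7.08 in Ntsr2 AKO mice. Ntsr2 AKO 3 was the highest mouse of all, while Ntsr2 AKO 4 had no read. At this depth the log2 fold change of -1.93 (SE 1.20, limma adjusted p = 0.687) depends on the pseudocount and is no bound, and it was -0.65 without Ntsr2 AKO 4 and 0.12 in the 3 mice low in skeletal muscle markers. Col7a1, which forms anchoring fibrils, had a log2 fold change of -1.04, with control 5 at 1259 and the other 5 mice between 144 and 264. The 16 collagen genes not described with every mouse were lower in 11 cases and higher in 5, with a median log2 fold change of -0.12 and no gene without overlap.

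Beyond the genotypes, collagen genes differed widely between mice. The ratio of the highest to the lowest mouse had a median of 3.14 over the collagen genes and of 1.75 over all genes tested. Among genes with a mean of at least 1000, it was 2.03 for 15 collagen genes and 1.48 for 7539 genes in all. Ntsr2 AKO 5 was the highest mouse in 14 of 35 collagen genes, against 19.7% of all genes, and Ntsr2 AKO 4 was the lowest in 13, against 16.0%. Control 3 was the lowest in 10, against 19.0%. The median deviation from the mean of the gene over the fibrillar class was -0.45, 0.28 and 0.22 on the log2 scale in control 3, 4 and 5 and -0.23, -0.47 and 0.54 in Ntsr2 AKO 3, 4 and 5. Both the lowest and the highest of these values belonged to Ntsr2 AKO mice.

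**Figure D3:**
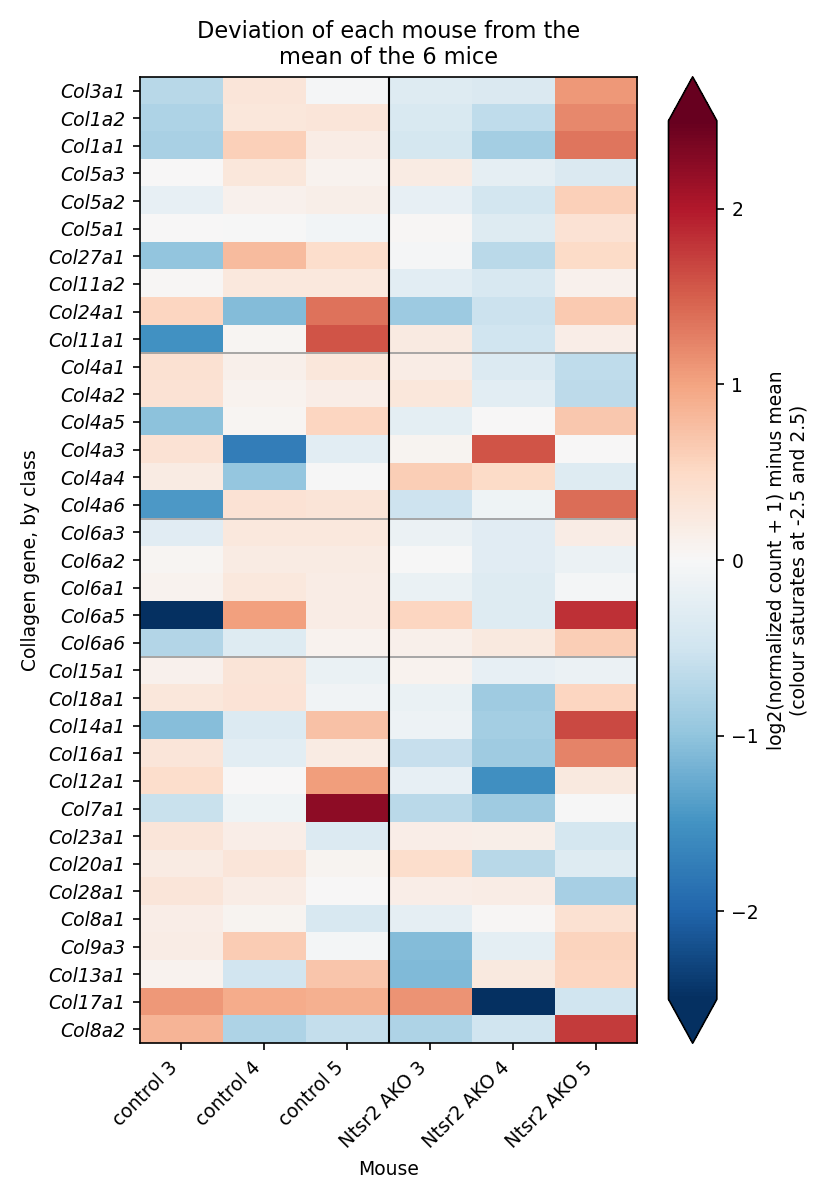
The deviation of each mouse from the mean of the gene on the log2 scale (color) is drawn for the 35 collagen genes (rows, by class) and 6 mice (columns). The column of Ntsr2 AKO 5 is high through most fibrillar genes and low in Col4a1, Col4a2 and Col5a3, and the column of Ntsr2 AKO 4 is below the mean in most rows.

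As a share of all recovered reads, collagen reads made up 0.772%, 0.967% and 0.868% in control mice and 0.816%, 0.672% and 1.37% in Ntsr2 AKO mice. Ntsr2 AKO mice thus held both the lowest and the highest share. The make-up of these reads, which are not corrected for length, shifted between mice too. Col1a1, Col1a2 and Col3a1 together took 34.2%, 51.8% and 47.7% of collagen reads in control mice and 41.5%, 45.9% and 70.4% in Ntsr2 AKO mice. Col4a1 and Col4a2 took 31.0%, 18.6% and 22.2% and then 26.0%, 22.0% and 8.54%. The shares of both pairs of groups overlapped, and the mouse with the most interstitial collagen reads, Ntsr2 AKO 5, had the lowest share of type IV reads.

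**Figure D4:**
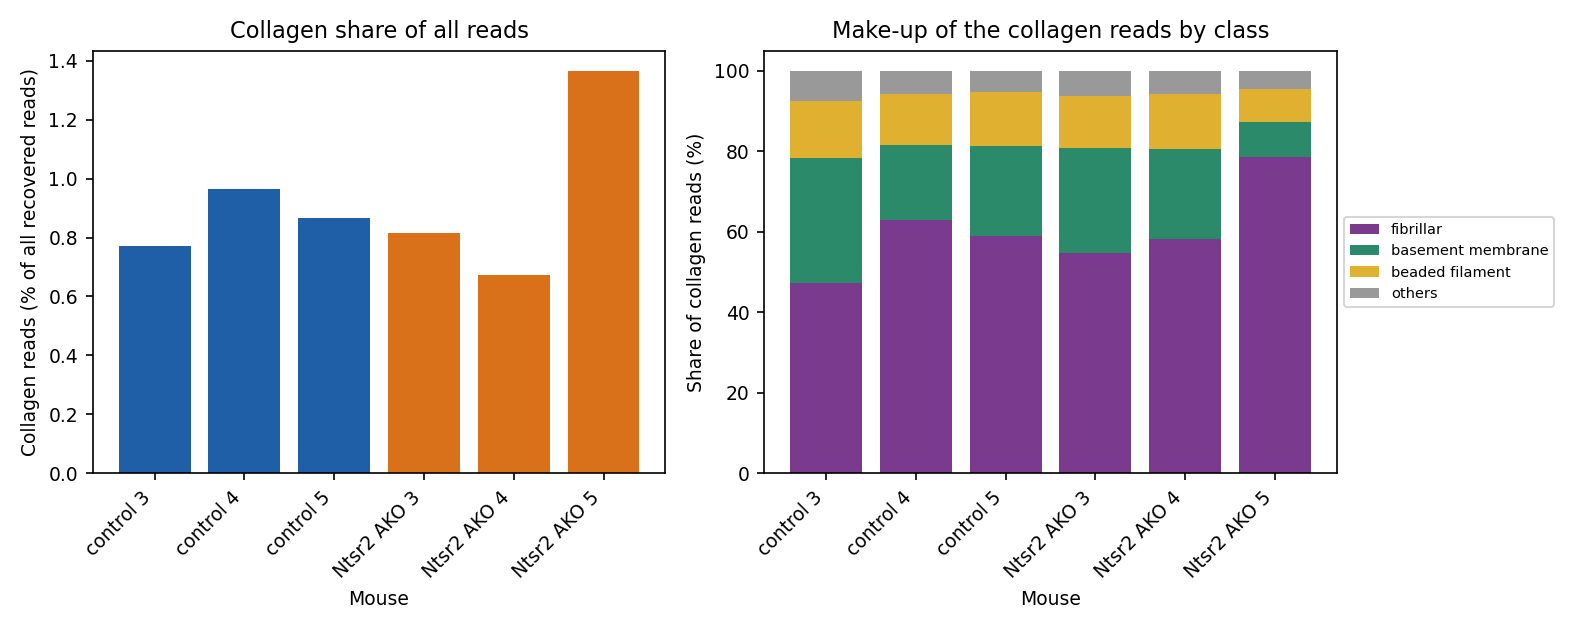
The left panel shows collagen reads as a percent of all recovered reads in each mouse, and the right panel shows how those reads divide among the 4 classes. Ntsr2 AKO 5 stands out at 1.37% with 78.5% of its collagen reads in fibrillar genes, and control 3 has the lowest fibrillar share at 47.2%.

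For types I, IV and V, the ratios of chains that join in 1 molecule or fibril varied less between mice than the levels did. The same held for Col6a1 to Col6a2. The ratio of Col4a1 to Col4a2, per kb of transcript, was 1.96, 2.01 and 2.09 in control mice and 1.82, 1.84 and 1.99 in Ntsr2 AKO mice, while Col4a1 itself differed by 2.00 times between the highest and the lowest mouse. The ratio of Col6a1 to Col6a2 was 0.933, 0.945 and 0.896 in control mice and 0.823, 0.891 and 0.983 in Ntsr2 AKO mice. The ratio of Col1a1 to Col1a2 was 0.548, 0.686 and 0.510 and then 0.534, 0.479 and 0.608, while Col1a1 differed by 4.56 times between mice. Over the 6 mice the ratios lay between 0.602 and 0.826 for Col5a1 to Col5a2, between 0.344 and 0.553 for Col6a3 to Col6a2, and between 3.13 and 5.36 for Col3a1 to Col1a1. In proportion, the ratio of Col6a3 to Col6a2 varied more than either chain did, whose highest mouse was 1.48 and 1.41 times the lowest. The groups overlapped in all 6 ratios compared. The lowest p was 0.2 for Col4a1 to Col4a2 (two-sided exact permutation test, 0.72 after Benjamini-Hochberg adjustment over 6 ratios, mean log2 difference -0.10, SE 0.050), and the smallest p that 3 against 3 mice allow is 0.1.

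**Figure D5:**
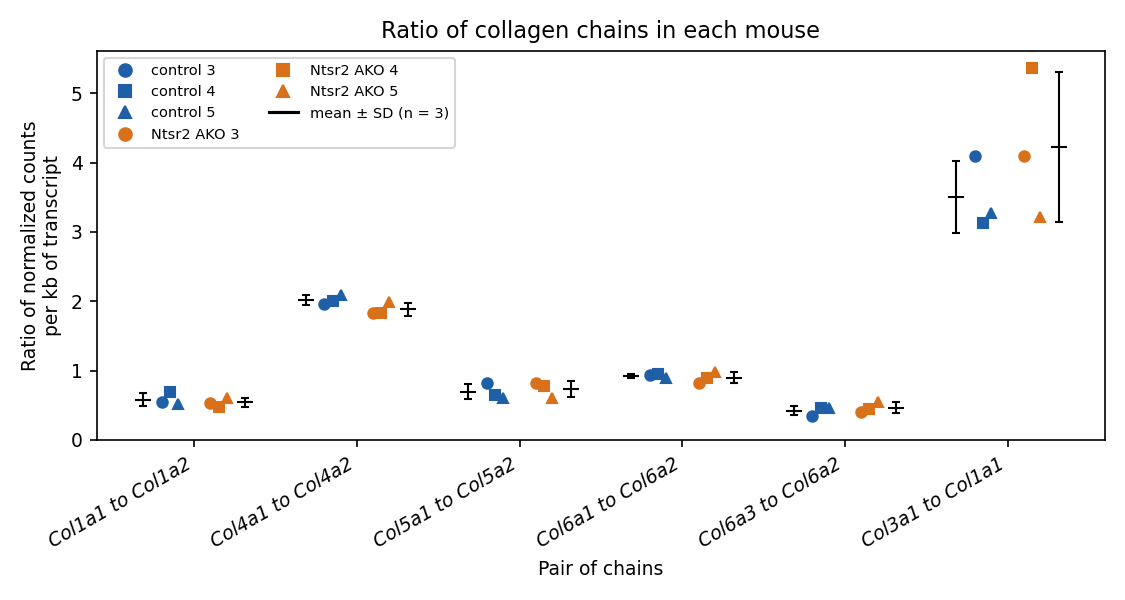
The ratio of normalized counts per kb is plotted for 6 pairs of collagen chains, with 1 point for each mouse and the mean and SD of each group (n = 3). The points of Col4a1 to Col4a2 lie between 1.82 and 2.09, and the genotypes overlap in every pair.

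The genes that make and handle collagen were examined as 6 lists. Of 15 biosynthesis enzymes tested, 2 were lower and 0 were higher at an unadjusted p under 0.05, of 10 folding and export genes 3 were lower and 0 higher, and of 14 processing and crosslinking genes 1 was lower and 0 were higher, beside 5.27% lower and 3.08% higher of all genes. In 15 fibril partners, 14 basement membrane partners and 12 receptors 0 were called in either direction. limma with Benjamini-Hochberg adjustment called 0 genes in every list. The list medians were -0.049, -0.12, -0.062, 0.11, -0.22 and 0.0022 in the same order, against -0.0071 for all genes tested.

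Among the enzymes that modify the nascent chains, P4ha1, a catalytic subunit of prolyl 4-hydroxylase, was at 4822, 6219.9 and 5989 in control mice and at 3467, 3279.5 and 3849 in Ntsr2 AKO mice. No Ntsr2 AKO mouse reached the lowest control mouse, and the log2 fold change was -0.68 (SE 0.14, limma adjusted p = 0.499). In DESeq2 this gene was called, with an adjusted p of 0.00823. It was the only 1 of 15 genes of the list that was, beside 1.36% of all genes. Plod3, a lysyl hydroxylase and glycosyltransferase, was at 6295, 6066 and 5239.6 in control mice and at 5119.7, 4319 and 3662 in Ntsr2 AKO mice, with a log2 fold change of -0.43 (SE 0.15, limma adjusted p = 0.565). Colgalt2, a collagen galactosyltransferase, had a log2 fold change of 0.62 (SE 0.36), and its groups overlapped.

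In the folding and export list, Serpinh1, which encodes the collagen chaperone HSP47, was at 54439, 61712 and 47614 in control mice and at 35402, 26074 and 43065 in Ntsr2 AKO mice. The groups did not overlap, and this held for Ntsr2 AKO 5 too, which had the most fibrillar collagen reads. Its log2 fold change was -0.67 (SE 0.22, limma adjusted p = 0.553). Creb3l1, a transcription factor of the endoplasmic reticulum that drives genes for procollagen and its secretion, was at 3402, 3065 and 2921 in control mice and at 2379, 798 and 1273 in Ntsr2 AKO mice, with a log2 fold change of -1.22 (SE 0.37, limma adjusted p = 0.523). Sec24d, a coat protein of the vesicles that carry procollagen, was at 3458, 3568 and 3279 in control mice and at 3256, 2379 and 2224 in Ntsr2 AKO mice. There the groups were separated by a small step, and the log2 fold change was -0.41 (SE 0.16, limma adjusted p = 0.588). In the 3 mice low in skeletal muscle markers the log2 fold changes were -0.66 for P4ha1, -0.71 for Serpinh1, -0.44 for Creb3l1, -0.11 for Sec24d and -0.27 for Plod3.

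In the processing and crosslinking list, the lysyl oxidase family member Loxl4 was at 176, 112 and 539 in control mice and at 104, 39.4 and 71.9 in Ntsr2 AKO mice, with a log2 fold change of -1.71 (SE 0.64, limma adjusted p = 0.565). Its groups did not overlap, control 5 was far above the other mice, and the log2 fold change was -1.07 without control 5 and -0.43 in the 3 mice low in skeletal muscle markers. The crosslinking enzymes Tgm2 and Loxl1 had log2 fold changes of -0.35 and -0.68, and both overlapped. Tgm2 was at -0.027 in the 3 mice low in skeletal muscle markers and -0.19 without Ntsr2 AKO 5, and Loxl1 was at -0.30 in those mice and -0.17 without Ntsr2 AKO 4. The fibril partners with the lowest p were the small leucine-rich proteoglycans Ogn, Aspn and Omd, at 0.38, 0.35 and 0.75, and at 0.36, -0.060 and 0.14 in the 3 mice low in skeletal muscle markers. For Hspg2, the perlecan gene, and the laminin genes Lama5 and Lamc1 the values were -0.29, -0.43 and -0.32. Of the 14 basement membrane partners 12 were below 0, beside 51.0% of all genes tested. In the 3 mice low in skeletal muscle markers the values for Hspg2, Lama5 and Lamc1 were -0.051, 0.049 and 0.018. The receptors with the lowest p were Ddr1 at -0.72, Antxr1 at 0.81 and Itga11 at 0.40, with -0.15, 0.42 and 0.42 in the 3 mice low in skeletal muscle markers. Antxr1, a receptor for collagen that includes type VI, was at 913, 874 and 1121 in control mice and at 1198, 1148 and 3537 in Ntsr2 AKO mice, without overlap, and its log2 fold change was 0.28 without Ntsr2 AKO 5.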

How the data were processed

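Total RNA of adipose tissue from 3 control and 3 Ntsr2 AKO mice was sequenced. The deposited values are a signal, normalized counts per gene and mouse, made by the authors. Their methods name Trimmomatic, Hisat2, StringTie and DESeq2, and the submitters' processing notes list HISAT2, StringTie and mm10. The annotation was not given in the sources used here. Divided by the smallest step in its column, 100% of values came out as whole reads within 0.01, so each value is a read count divided by a size factor. All 6 columns were mapped by name and 0 were left out.

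Genes with a mean of at least 10 (16157) were tested on log2(value + 1) with limma 3.58.1 (lmFit, eBayes with a mean-variance trend, no covariates) in R 4.3.3, with Benjamini-Hochberg adjustment over all genes and a threshold of 0.05. edgeR 4.0.16 and DESeq2 1.42.0 on the recovered reads were alternatives. The tests were checked on simulated data, with changes larger than that of any collagen gene in the main fit. That check does not cover smaller changes. No pair of columns differed by as little as sampling noise. The labels do not state that each sample is a separate mouse, so p-values measure only the spread between these samples.

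Collagen genes and lists were chosen with earlier results of these data known. Genes described with every mouse were, in each class, the 4 with the highest mean per kb, those with the largest change in each direction, and those with an unadjusted p under 0.05 or without overlap. Of each pathway list, the 3 genes with the lowest p were named. Other named genes were chosen after their values were seen. Levels per kb use the length of 1 GENCODE M21 transcript for each gene. Promoters are RefSeq windows (GRCm38.p6), in which 29 of 35 genes were found.

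Alternatives were pseudocounts of 0.1 and 5, a minimum mean of 50 or none, quantile normalization, TMM, no trend, the replicate block, edgeR, DESeq2, a skeletal muscle covariate and the omission of each mouse. A fit of the 3 mice low in skeletal muscle markers was chosen after seeing the data.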

Additional observations from a re-analysis of the deposited data

How the results depend on the processing

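In all alternatives 0 collagen genes passed an adjusted p of 0.05. The 2 collagen genes lower at an unadjusted p under 0.05 became 1 with quantile normalization, TMM, no trend and edgeR, 4 with DESeq2, 0 in the 3 mice low in skeletal muscle markers, where a lone Ntsr2 AKO mouse is assumed to vary like the controls, and 0 to 6 when a mouse was left out. It was 0 without control 4, control 5 or Ntsr2 AKO 4, 6 without Ntsr2 AKO 3 and 4 without Ntsr2 AKO 5. Of collagen genes higher there were 0 to 1 when a mouse was left out, the 1 being Col6a6 without control 5. The 1 gene of all genes past the threshold became 0 with no filter, no trend, edgeR, the muscle covariate and the 3 mice, 219 with DESeq2, and 0 whenever a mouse was left out. The median log2 fold change of collagen genes ranged from -0.31 to 0.0061 when a mouse was left out.

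Direction turned in the 3 mice low in skeletal muscle markers for Col3a1 (-0.13), Col1a2 (-0.13), Col1a1 (-0.33), Col4a2 (0.046), Col5a3 (0.059), Col17a1 (0.12), Aspn (-0.060), Lama5 (0.049) and Lamc1 (0.018), with the muscle covariate for Col1a1 (-0.027), and with edgeR and DESeq2 for Col16a1 (0.16 in both). The causes were not tested. Of the 19 named collagen genes 8 kept their sign in every alternative, and of the 18 pathway genes 15 did. When a mouse was left out, log2 fold changes ranged from -0.20 to 0.52 for Col3a1, -0.45 to 0.48 for Col1a2, -0.64 to 0.46 for Col1a1, -0.71 to 0.0061 for Col18a1, -0.27 to 0.98 for Col14a1, -0.81 to 0.25 for Col16a1, -0.14 to 0.63 for Col4a5 and -1.20 to 0.011 for Col24a1. The log2 difference of the ratios turned in the same way for Col1a1 to Col1a2 (-0.19 to 0.025), Col5a1 to Col5a2 (-0.0058 to 0.22) and Col6a1 to Col6a2 (-0.11 to 0.018).

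The mice of both groups share the numbers 3, 4 and 5. Deviations from the group means correlated by 0.45, -0.24 and 0.41 between same-numbered mice over 16157 genes. Between control and Ntsr2 AKO mice of different numbers the correlations ranged from -0.52 to 0.26. The values of numbers 3 and 5 lay above that range, and that of number 4 was negative. As the same-numbered values differed in sign, the numbers were not taken to pair the mice, and a fit with the replicate block is given. With the replicate block 0 collagen genes and 0 of all genes passed the threshold, and 2 collagen genes were lower at an unadjusted p under 0.05. With differences within numbers the lowest exact sign-flip p of the 6 ratios was 0.25, the smallest it can give.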
